A study of Mus musculus with 6 samples.

Results

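The pyruvate dehydrogenase kinases and the glycolytic switch they control were examined in hematopoietic stem cells (HSCs) through 10 genes: the kinases *Pdk1*, *Pdk2*, *Pdk3*, and *Pdk4*, the phosphatases *Pdp1* and *Pdp2*, the enzyme subunit *Pdha1*, the glycolytic enzymes *Ldha* and *Pkm*, and the regulator *Hif1a*. They were taken from the expression table by symbol, and all 10 were among its 26264 genes. The study compared HSCs that lack the transcription factor IRF1 with wild-type (WT) HSCs by bulk RNA sequencing. WT mice were C57Bl/6, and *Irf1-/-* mice were the whole-body knockout B6.129S2-Irf1 tm1Mak/J. All mice were untreated females, 8 weeks old, and HSCs were sorted from bone marrow as LSK CD150+ CD48- cells, with 1 library from each of 3 mice per genotype. The libraries are named by the replicate numbers 2, 3, and 4 of the labels. Because every cell of an *Irf1-/-* mouse carries the deletion, changes arising in HSCs and changes imposed by their surroundings cannot be told apart.

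Expression is given as normalized counts, the reads of a gene divided by 1 size factor per library. Libraries held between 43138521 and 59658080 reads on genes, were made with SMART-Seq v4 and Nextera XT, and carried no molecular identifiers, so PCR copies of a molecule were counted separately. For *Irf1*, which the knockout targets, normalized counts were 9267, 9524, and 9287 in *Irf1-/-* replicates 2, 3, and 4 and 10122, 11120, and 12057 in the corresponding WT replicates. The *Irf1-/-* libraries were all below the WT libraries, but the difference was small and missed the threshold (limma log2 fold change −0.24 with an SE of 0.088 and an adjusted *P* of 0.170). A count over the whole gene does not show which part of the transcript was read, so it does not by itself check the genotype labels. In bulk samples, a change in the cells that make up the sample and a change in the RNA of each cell cannot be told apart. All 11 HSC markers of a fixed list were counted in every library, which does not by itself identify the cells. *Kit* was counted at 77902 to 88715, *Cd34* at 15798 to 21456, and *Hlf* at 12357 to 17762 over the 6 libraries.

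Pyruvate, the end product of glycolysis, either enters mitochondria to be turned into acetyl-CoA by the pyruvate dehydrogenase complex or is reduced to lactate in the cytosol. Pyruvate dehydrogenase kinases phosphorylate the E1α subunit of the complex and switch it off, and the phosphatases switch it on again. Quiescent HSCs are known for a high reliance on glycolysis, for which HIF-1α and the kinases PDK2 and PDK4 are required.

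Of the kinases, only *Pdk4* was called different between genotypes. *Pdk4* encodes the kinase that fasting, fatty acids, and glucocorticoids induce in many tissues. Its normalized counts were 447, 483, and 344 in *Irf1-/-* replicates 2, 3, and 4, and 220, 219, and 155 in WT replicates 2, 3, and 4. Every *Irf1-/-* library lay above every WT library, and replicate 4 was the lowest of its genotype in both. *Pdk4* was thus 2.15-fold higher in *Irf1-/-* HSCs (424 ± 72.3 against 198 ± 37.1 normalized counts, SD, *n* = 3 mice each), and limma gave a log2 fold change of 1.10 with an SE of 0.22 and an adjusted *P* of 0.0151. These values rest on 144 to 559 reads per library, the fewest among the members. The call was lost without *Irf1-/-* replicate 2 (log2 fold change 1.06, adjusted *P* = 0.0751, limma) or replicate 3 (1.00, adjusted *P* = 0.0590), although *Pdk4* remained higher by a similar amount. It was also lost when limma was fitted without an intensity trend, where 40 genes in all were called and every other gene named below as called lost its call too, and over all alternatives its adjusted *P* in limma, edgeR, or DESeq2 ran from 4.27e-05 to 0.171.

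*Pdk2* encodes a broadly expressed kinase. Its normalized counts were 4927, 4715, and 4702 in *Irf1-/-* replicates 2, 3, and 4, and 3606, 4013, and 4208 in the WT replicates. All *Irf1-/-* libraries were above all WT libraries, with little spread among the *Irf1-/-* mice, but the gene did not pass the test (limma log2 fold change 0.28 with an SE of 0.091 and an adjusted *P* of 0.121). In DESeq2 its adjusted *P* was 0.0480 without and 0.0481 with a prior, with fold changes under the threshold (0.28 and 0.26). *Pdk1*, the kinase gene best known as a HIF-1 target, had normalized counts of 8559, 8759, and 8176 in *Irf1-/-* HSCs and of 7140, 8133, and 9495 in WT HSCs. The *Irf1-/-* values fell inside the range of WT HSCs, in which replicate 2 was low and replicate 4 was high. No direction could be assigned to *Pdk1* (limma log2 fold change 0.05 with an SE of 0.10 and an adjusted *P* of 0.879), since its fold change was −0.049 without WT replicate 2. *Pdk3*, an X-linked gene for a kinase with low sensitivity to pyruvate, had normalized counts of 6697, 8116, and 7246 in *Irf1-/-* HSCs and of 8334, 8619, and 7504 in WT HSCs. The genotypes overlapped through *Irf1-/-* replicate 3 and WT replicate 4 (limma log2 fold change −0.15 with an SE of 0.096 and an adjusted *P* of 0.498).

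The genes of the opposing phosphatases were not called. *Pdp2*, for the insulin-sensitive catalytic subunit, had normalized counts of 926, 871, and 817 in *Irf1-/-* replicates 2, 3, and 4 and of 1128, 1072, and 1049 in the WT replicates. Here the *Irf1-/-* libraries were all below the WT libraries, at 80.5% of the WT mean, and the difference did not pass adjustment (limma log2 fold change −0.31 with an SE of 0.12 and an adjusted *P* of 0.199). *Pdp1*, for the calcium-stimulated catalytic subunit, had normalized counts of 2112, 2453, and 2164 in *Irf1-/-* HSCs and of 2708, 2770, and 2211 in WT HSCs. WT replicate 4 was within the *Irf1-/-* range, and the genotypes overlapped (limma log2 fold change −0.19 with an SE of 0.11 and an adjusted *P* of 0.464). *Pdha1*, the X-linked gene of the phosphorylated E1α subunit, had normalized counts of 5582, 6508, and 5693 in *Irf1-/-* HSCs and of 5925, 6526, and 6233 in WT HSCs. Of the *Irf1-/-* libraries, replicates 2 and 4 were below every WT library and replicate 3 was within the WT range (limma log2 fold change −0.07 with an SE of 0.091 and an adjusted *P* of 0.776).

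On the glycolytic side, *Ldha* encodes the lactate dehydrogenase subunit that favors the reduction of pyruvate to lactate. Its normalized counts were 68603, 71043, and 74853 in *Irf1-/-* replicates 2, 3, and 4 and 80626, 92119, and 78111 in the WT replicates. No *Irf1-/-* library reached the lowest WT library, and WT replicate 3 was the highest. On average *Irf1-/-* HSCs held 85.5% of the WT level, and the gene was not called (limma log2 fold change −0.22 with an SE of 0.0998 and an adjusted *P* of 0.282), with a fold change close to 0 after quantile normalization (−0.04). *Pkm*, whose splice forms M1 and M2 cannot be separated in counts per gene, encodes the pyruvate kinase of most tissues other than liver. It had normalized counts of 65170, 75233, and 63040 in *Irf1-/-* HSCs and of 64954, 63461, and 59720 in WT HSCs. *Irf1-/-* replicate 3 stood above the rest, and the other 5 libraries intermingled (limma log2 fold change 0.11 with an SE of 0.099 and an adjusted *P* of 0.669, and 0.03 without that library). *Hif1a*, for the oxygen-regulated subunit of HIF-1, had normalized counts of 4117, 4962, and 3889 in *Irf1-/-* HSCs and of 4945, 5350, and 4343 in WT HSCs. The genotypes overlapped, and replicate 3 was the highest in each (limma log2 fold change −0.18 with an SE of 0.11 and an adjusted *P* of 0.489). HIF-1α is regulated mainly through the stability of the protein, which was not measured here.

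All 10 members passed the filter on low values, a mean normalized count of at least 10. To be called, a gene needed a limma adjusted *P* below 0.05 together with a log2 fold change beyond 0.58 in size, which 1 of the 10 members met in the higher direction and 0 in the lower direction. Over the 17404 tested genes, 1.91% were called, 0.96% higher and 0.954% lower. At an unadjusted *P* under 0.05 in limma, 4 of the 10 members were counted, beside 2863 of the 17404 tested genes. That count depended on single libraries, with 2 members without *Irf1-/-* replicate 4, 1 without WT replicate 2, and 6 when WT replicate 4 was left out. The libraries of the genotypes did not overlap for 4 of 10 members, *Pdk2* and *Pdk4* in one direction and *Pdp2* and *Ldha* in the other, against 19.9% of all tested genes. With scaling to the total reads of each library, *Pkm* joined them and the count was 5, while the 19.9% refers to the deposited scaling only. The median log2 fold change of the members was −0.11, beside −0.0028 for all tested genes, and 4 members were above 0 and 6 below. Leaving out *Irf1-/-* replicate 2 gave −0.06, *Irf1-/-* replicate 3 −0.18, and WT replicate 3 −0.07. Scaling to total reads also gave −0.07, and quantile normalization gave −0.04.

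The members were compared with each other in level as normalized counts per kilobase of the longest annotated transcript. On that scale *Ldha* (38846 to 52163 over the 6 libraries) and *Pkm* (26889 to 33874) were far above the other members. *Pdk3* (3166 to 4075) came next and was the highest kinase gene per kilobase in every library, whereas in counts not divided by length *Pdk1* was above it in all *Irf1-/-* libraries and in WT replicate 4. *Pdha1* (1960 to 2291), *Pdk2* (1606 to 2194), and *Pdk1* (1377 to 1831) formed a middle group in which neighboring ranges overlapped. *Pdha1* was above *Pdk2* in 4 of the 6 libraries, the exceptions being *Irf1-/-* replicates 2 and 4. *Hif1a* (823 to 1132), *Pdp1* (503 to 659), *Pdp2* (234 to 324), and *Pdk4* (44.5 to 139) followed in this order in all 6 libraries, with ranges that did not overlap.

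Within the kinase genes, *Pdk4* thus made up a small share per kilobase. Its share among *Pdk1* to *Pdk4* was 1.80%, 1.79%, and 1.37% in *Irf1-/-* replicates 2, 3, and 4 and 0.903%, 0.837%, and 0.609% in the WT replicates. All *Irf1-/-* libraries were above all WT libraries, by 0.868 percentage points on average, which is more than the SD between replicates (0.203). *Pdk3* held 44.4%, 49.4%, and 47.6% in *Irf1-/-* HSCs and 56.4%, 54.4%, and 48.6% in WT HSCs. These ranges overlapped in *Irf1-/-* replicate 3 and WT replicate 4. *Pdk2* held 30.7%, 27.0%, and 29.1% in *Irf1-/-* HSCs and 23.0%, 23.8%, and 25.7% in WT HSCs. Its share was higher in every *Irf1-/-* library, whereas that of *Pdk1* overlapped (21.8% to 23.1% in *Irf1-/-* and 19.7% to 25.1% in WT HSCs). Shares of transcripts were described without a test and say nothing of kinase protein.

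*Ldha* was also set against *Ldhb*, the subunit that favors the oxidation of lactate, because a ratio within a library does not depend on size factors. *Ldhb* had normalized counts of 10042, 12258, and 10560 in *Irf1-/-* HSCs and of 9147, 9255, and 9606 in WT HSCs. Every *Irf1-/-* library was above every WT library, opposite to *Ldha*. The log2 ratio of *Ldha* to *Ldhb* was 2.77, 2.54, and 2.83 in *Irf1-/-* replicates 2, 3, and 4 and 3.14, 3.32, and 3.02 in the WT replicates. The ratio was lower in all *Irf1-/-* libraries, with a difference of −0.45 between the means and an SD between replicates of 0.15, and was described without a test.

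**Figure D1:**
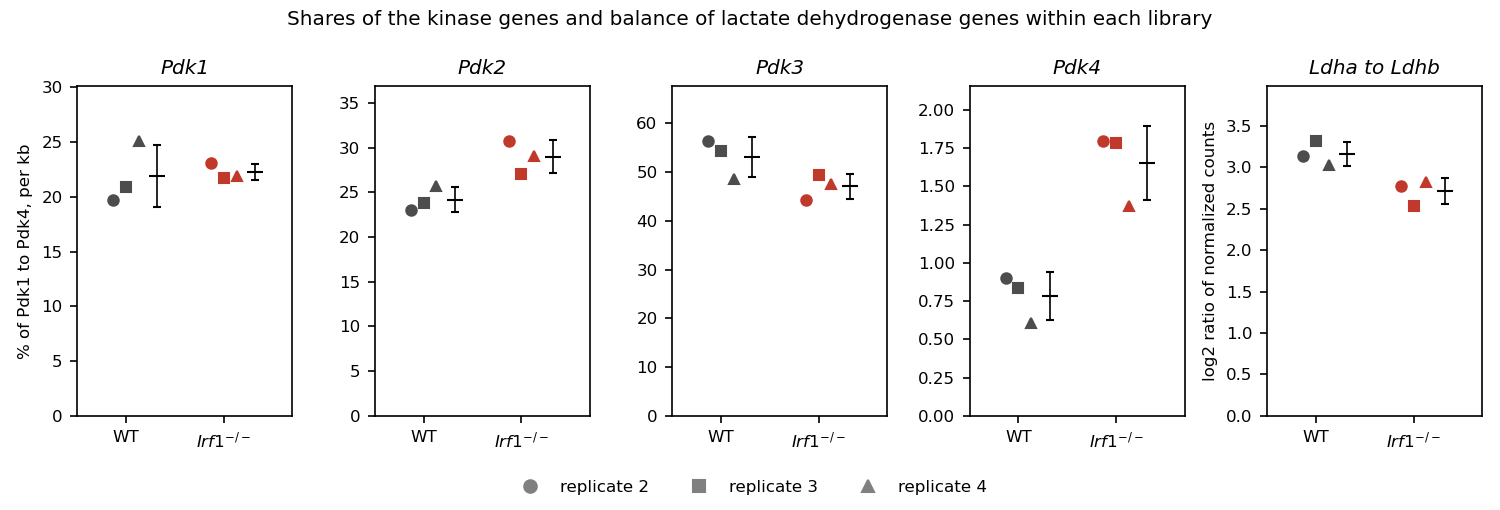
Share of each kinase gene among *Pdk1* to *Pdk4* per kilobase of transcript, and log2 ratio of *Ldha* to *Ldhb*, in each library (WT grey, *Irf1-/-* red; symbols give the replicate, black bars the mean ± SD of 3 mice). The *Pdk4* share was between 1.37% and 1.80% in *Irf1-/-* HSCs and between 0.609% and 0.903% in WT HSCs.

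The genes around the members were examined as fixed lists. Of 12 genes for pyruvate entry and the pyruvate dehydrogenase complex, all were tested and 0 were called in either direction in limma, edgeR, or DESeq2, with 2 at an unadjusted *P* under 0.05 in limma (0 without *Irf1-/-* replicate 2 and 1 without WT replicate 3). Their median log2 fold change was −0.08 (−0.15 to −0.06 with a library left out, and −0.04 with scaling to total reads). Below 0 were 11 of the 12, but 8 without *Irf1-/-* replicate 2 and 9 without WT replicate 3. By mean normalized count, not divided by length, the highest were *Pdhb*, for the E1β subunit (6487 to 7735 normalized counts), *Pdha1*, *Dld*, for the E3 subunit (4525 to 5593), and *Dlat*, for the E2 subunit (4349 to 5300). The 12 citric acid cycle enzymes downstream of the complex were all below 0 (median −0.16, and −0.22 to −0.11 with a library left out). Of these, 11 were below 0 without *Irf1-/-* replicate 2, without WT replicate 3, or after quantile normalization. In limma, edgeR, or DESeq2, 0 were called, with 5 at an unadjusted *P* under 0.05 in limma (2 to 6 with a library left out).

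Of 21 glycolytic enzyme genes, all were tested, 1 was called higher and 0 lower, and the median log2 fold change was −0.02 and changed sign with single libraries left out (−0.06 to 0.05). *Aldoc* was also called higher without WT replicate 2. The called gene was *Hk3*, a hexokinase gene of myeloid cells, with normalized counts of 3620, 3889, and 3983 in *Irf1-/-* HSCs and of 2062, 1837, and 2588 in WT HSCs. Its groups were well separated (limma log2 fold change 0.84 with an SE of 0.12 and an adjusted *P* of 0.00155), and the call held with any library left out but not without an intensity trend (adjusted *P* 0.162, limma). The genes of the list with the highest mean counts were *Pkm*, *Eno1*, *Aldoa*, and *Hk1*, none of which was called. In the list of lactate dehydrogenases, monocarboxylate carriers, and glucose transporters, 11 of 12 genes were tested, and *Ldhd*, for the mitochondrial enzyme that oxidizes D-lactate, was called higher and 0 were called lower (median 0.15, and 0.02 to 0.19 with a library left out). *Ldhd* had normalized counts of 1434, 1816, and 2013 in *Irf1-/-* HSCs and of 1150, 975, and 1227 in WT HSCs (limma log2 fold change 0.64 with an SE of 0.14 and an adjusted *P* of 0.0244). All *Irf1-/-* libraries were above all WT libraries, but limma lost the call without *Irf1-/-* replicate 3 or 4 (adjusted *P* 0.0696 and 0.132) and without WT replicate 2 or 3 (0.0518 and 0.101). It was also lost without an intensity trend (adjusted *P* 0.269, limma), and in DESeq2 with a prior the fold change was under the threshold (0.56). The lactate carrier gene *Slc16a1* was lower in every *Irf1-/-* library but under the fold threshold (limma log2 fold change −0.51, adjusted *P* 0.0225). It was called lower only when *Irf1-/-* replicate 3 or WT replicate 4 was left out. The glucose transporter gene *Slc2a3* was higher in every *Irf1-/-* library and also under the fold threshold (limma log2 fold change 0.45, adjusted *P* 0.0148). Of 10 genes that control the rate of glycolysis, 0 were called in limma or edgeR and 2 had an unadjusted *P* under 0.05 (median log2 fold change 0.11). *Txnip*, an inhibitor of glucose uptake and the most counted of them, had normalized counts of 60842, 37707, and 60014 in *Irf1-/-* HSCs and of 30516, 37340, and 37176 in WT HSCs. In *Irf1-/-* replicate 3 it was barely above the WT range, and the gene was called higher without that library and in DESeq2 without a prior.

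The HIF pathway and its targets were examined next. Of 12 genes for HIF subunits, their hydroxylases, and regulators, 11 were tested, 0 were called in limma, the median log2 fold change was 0.07 (−0.0082 to 0.13 with a library left out, lowest without WT replicate 4), and 4 had an unadjusted *P* under 0.05 in limma (2 to 5 with a library left out). Under alternatives, *Epas1*, for HIF-2α, was called higher in DESeq2, after quantile normalization, with a replicate block, and without WT replicate 4, but not in edgeR. *Cited2* was higher in every *Irf1-/-* library but under the fold threshold (limma log2 fold change 0.41, adjusted *P* 0.0318). Of the 11 tested genes, 8 were above and 3 below 0 (5 and 6 without WT replicate 4). Of 20 listed HIF-1 targets, 19 were tested, with 12 above and 7 below 0 (8 and 11 without WT replicate 2). Their median was 0.05 (−0.03 to 0.08 with a library left out, lowest without WT replicate 2), and 0 were called in limma, edgeR, or DESeq2. The count at an unadjusted *P* under 0.05 in limma was 2, but 1 in every fit with a library left out other than WT replicate 4, 5 after quantile normalization, and 6 with scaling to total reads. *Bhlhe40* was called higher without *Irf1-/-* replicate 2.

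Genes linked to *Pdk4* transcription were examined as well. Of 12 transcription factors and coactivators with a known link to *Pdk4*, 0 were called in limma or edgeR, 4 had an unadjusted *P* under 0.05, and the median log2 fold change was 0.11 (0.05 to 0.16 with a library left out). Of these 12, 7 were above and 5 below 0. The most counted were *Nr3c1*, *Foxo1*, *Rxra*, and *Ppargc1b*, with limma log2 fold changes of 0.07, 0.31, 0.32, and −0.19. *Ppargc1a*, for the coactivator PGC-1α, was called higher in DESeq2, with the filter at a mean of 50, with a replicate block, and without WT replicate 4, with normalized counts of 416, 376, and 426 in *Irf1-/-* HSCs and of 229, 151, and 287 in WT HSCs. Every *Irf1-/-* library was above every WT library. *Foxo1*, a forkhead factor that activates *Pdk4*, had normalized counts of 2877, 2946, and 2963 in *Irf1-/-* HSCs and of 2442, 2478, and 2194 in WT HSCs. All *Irf1-/-* libraries were higher, and the gene was not called. Of 12 other targets of PPARs, FOXO factors, or the glucocorticoid receptor, 1 was called higher and 0 lower (median 0.20, and 0.09 to 0.28 with a library left out). This was *Acot1*, an acyl-CoA thioesterase gene, with normalized counts of 803, 897, and 889 in *Irf1-/-* HSCs and of 493, 511, and 588 in WT HSCs. The groups did not overlap (limma log2 fold change 0.70 with an SE of 0.14 and an adjusted *P* of 0.0153), and limma lost the call without *Irf1-/-* replicate 4 (adjusted *P* 0.0809) or WT replicate 2 or 3 (0.0638 and 0.0579). Of these 12 targets, 7 were above and 5 below 0. The most counted were *Tsc22d3*, *Cpt1a*, *Fkbp5*, and *Plin2*, with limma log2 fold changes of 0.28, 0.41, −0.18, and −0.17. *Cpt1a* was under the fold threshold with an adjusted *P* of 0.0384 in limma.

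Over the 6 libraries, the 5 tested genes most like *Pdk4* on the log2 scale were *Sec14l1* (Pearson r = 0.997), *Kifc2* (0.993), *Mamdc2* (0.991), *Lurap1* (0.989), and *Fam53c* (0.989). This likeness holds the genotype difference as well as the low values of both replicates 4. *Kifc2* and *Mamdc2* were also called higher (log2 fold change 0.85 and 0.63). *Kifc2* lost its call in limma without *Irf1-/-* replicate 2, 3, or 4 (adjusted *P* 0.109, 0.0838, and 0.0593) or WT replicate 2 (0.0696), and *Mamdc2* fell under the fold threshold without *Irf1-/-* replicate 3 (0.57) or WT replicate 4 (0.579). Among the other members, *Pdk2* was most like *Pdk4* (r = 0.756), followed by *Pkm* (0.745), while *Pdp2* (−0.769) and *Ldha* (−0.708) ran opposite. *Pdk2* and *Pkm* ranked only 1346 and 1430 among all tested genes in this likeness.

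Of 12 proliferation genes, 3 were called lower in *Irf1-/-* HSCs (*Mki67*, *Top2a*, and *Aurkb*) and 0 higher, with a median log2 fold change of −0.52. All 12 were below 0 in every fit. The unadjusted *P* in limma was under 0.05 for 12 (10 to 12 with a library left out, and 8 without an intensity trend). Against 19.9% of all tested genes, the libraries of the genotypes did not overlap for 8 of the 12 proliferation genes. Their summed normalized counts were 85819, 90517, and 66437 in *Irf1-/-* replicates 2, 3, and 4 and 121715, 131804, and 94217 in the WT replicates, and the most counted gene was *Mcm2*. Replicate 4 was the lowest of each genotype, as it was for *Pdk4*, while between genotypes the order of *Pdk4* was the opposite. All 3 calls were lost in limma without *Irf1-/-* replicate 4 (adjusted *P* 0.166, 0.0525, and 0.141 for *Mki67*, *Top2a*, and *Aurkb*), WT replicate 2 (0.146, 0.0571, and 0.112), or WT replicate 3 (0.127, 0.0652, and 0.134). That of *Mki67* was also lost without *Irf1-/-* replicate 2 (0.125) and that of *Aurkb* without *Irf1-/-* replicate 3 (0.0571). In DESeq2 with a prior, *Mki67* (−0.54) and *Aurkb* (−0.53) were under the fold threshold. The count of called genes rose to 4 without *Irf1-/-* replicate 3 and to 9 without WT replicate 4. Whether cycling cells had a part in the values of the members was not tested.

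Markers of other cells were summed in the same way. Of 8 erythroid markers, 4 were tested and 2 were called lower and 0 higher (*Car1* and *Klf1*; median −0.69, and −0.97 to −0.18 with a library left out). In limma, *Car1* lost its call without *Irf1-/-* replicate 3 or 4 (adjusted *P* 0.0611 and 0.0658), and *Klf1* without *Irf1-/-* replicate 2 or WT replicate 2 or 3 (0.0576, 0.119, and 0.107) and without *Irf1-/-* replicate 3 (0.0700). *Car1* was also not called in edgeR (adjusted *P* 0.0887), in DESeq2 without or with a prior (0.198 and 0.310), or in limma without an intensity trend (0.344). *Klf1* was not called with scaling to total reads or without an intensity trend (adjusted *P* 0.0658 and 0.316, limma), and its fold change was under the threshold in DESeq2 with a prior (−0.57). The summed counts of all 8 were 1796, 884, and 1101 in *Irf1-/-* and 3152, 2867, and 3907 in WT HSCs, with *Car1* the highest on average, although *Klf1* was above it in every *Irf1-/-* library and WT replicate 3, and the globin genes *Hba-a1*, *Hba-a2*, *Hbb-bs*, and *Hbb-bt* listed at 0 in all 6 libraries. Of 8 megakaryocyte markers, 7 were tested and 2 were called lower and 0 higher (*Pf4* and *Gp1bb*; median −0.27, and −0.58 to −0.11 with a library left out, with *Itga2b* also called without WT replicate 4), with summed counts of 47318, 31905, and 43884 in *Irf1-/-* and 54060, 69367, and 51388 in WT HSCs, most from *Itga2b*. Of 9 granulocyte markers, 0 were called in limma, edgeR, or DESeq2, and 1 had an unadjusted *P* under 0.05 in limma. Their median of −0.37 depended on single libraries and was 0.93 without WT replicate 4, when *Prtn3* and *Ngp* were called higher, 0.07 without *Irf1-/-* replicate 2, −0.21 without *Irf1-/-* replicate 3, −0.73 without *Irf1-/-* replicate 4, and −1.14 and −1.04 when WT replicates 2 and 3 were left out in turn. It also depended on the tool, at −2.22 in edgeR, where 5 had an unadjusted *P* under 0.05, and −2.23 without and −0.09 with a prior in DESeq2. Their sum was 14284 in WT replicate 4 and between 5212 and 10831 in the other libraries, with *Prtn3* the most counted and *Ngp* at 2535 in WT replicate 4 against 24.8 to 127 elsewhere. *Prtn3* itself was higher in every *Irf1-/-* library but under the fold threshold (limma log2 fold change 0.53, adjusted *P* 0.0334). In limma it was called without WT replicate 4 (adjusted *P* 0.0185) or WT replicate 2 (0.0497), while its adjusted *P* was 0.0610, 0.0501, and 0.169 without *Irf1-/-* replicates 2, 3, and 4 and 0.127 without WT replicate 3. Without WT replicate 4, the log2 fold change of *Pdk4* was 0.94 and that of *Ldha* was −0.27. Stroma, endothelium, monocyte and macrophage, B cell, and T and NK cell lists held 0 called genes in limma, edgeR, or DESeq2 (8 of 10, 8 of 8, 8 of 8, 5 of 7, and 4 of 7 tested; medians 0.50, 0.14, 0.05, 0.09, and −0.17; 3, 4, 0, 0, and 1 at an unadjusted *P* under 0.05 in limma). With a library left out, these medians ran from 0.20 to 0.54, 0.0031 to 0.26, −0.02 to 0.16, 0.04 to 0.23, and −0.42 to 0.37. The counts at an unadjusted *P* under 0.05 in limma then ran from 1 to 4, 2 to 4, and 0 to 1 for the first 3 lists. They stayed at 0 for B cells and ran from 1 to 2 for T and NK cells. The endothelial gene *Emcn* was under the fold threshold (log2 fold change 0.576, adjusted *P* 0.0101, limma). It was called higher under the 3 other scalings and when replicate 2 or 4 of *Irf1-/-* or replicate 2 or 3 of WT HSCs was left out. *Kdr* was called higher with a replicate block or without WT replicate 4. Of the 8 endothelial genes, 5 were above 0 and 3 below. Among the latter, *Flt4* was lower in every *Irf1-/-* library (log2 fold change −0.85, unadjusted *P* 0.0389, adjusted *P* 0.271, limma). The HSC list held 1 called gene, *Fgd5*, which was higher (log2 fold change 0.83), with 0 lower and a median of 0.25. Above 0 were 9 of its 11 genes, and 7 had an unadjusted *P* under 0.05 in limma (5 to 7 with a library left out). The genotypes did not overlap for 6 of the 11, 5 higher and 1 lower, against 19.9% of all tested genes. *Procr* was also called higher without WT replicate 2. *Ly6a*, for the sorting marker Sca-1, was lower in every *Irf1-/-* library (4974 to 6047 against 6908 to 7692 in WT HSCs). Its adjusted *P* was 0.0245 in limma, but its log2 fold change was under the threshold (−0.43), and it was called in none of the fits. The part of these cell types in the values of the members was not tested.

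Promoter windows of 300 bases, from 250 before to 50 after the start of transcription, were taken from RefSeq (GRCm38.p6) and matched by symbol for 9 of the 10 members (not *Pdp1*). They are shown for the 4 members whose genotypes did not overlap, a choice made after the values were seen, because the knocked-out gene encodes a factor that binds DNA. Where a gene had several starts, the first listed one was used. The letters searched, on both strands, were GAAA, any 2 bases, and GAAA for interferon regulatory factors, ACGTG for HIF-1, GTAAACA for FOXO factors, and AGGTCA for nuclear receptors, and matches are in capitals. The window of *Pdk4* held none of the 4. Those of *Pdk2*, *Pdp2*, and *Ldha* held ACGTG, mostly within CACGTG, which reads the same on both strands and is also the letters of an E-box.
*Pdk4* (chr6:5496229-5496528, minus strand): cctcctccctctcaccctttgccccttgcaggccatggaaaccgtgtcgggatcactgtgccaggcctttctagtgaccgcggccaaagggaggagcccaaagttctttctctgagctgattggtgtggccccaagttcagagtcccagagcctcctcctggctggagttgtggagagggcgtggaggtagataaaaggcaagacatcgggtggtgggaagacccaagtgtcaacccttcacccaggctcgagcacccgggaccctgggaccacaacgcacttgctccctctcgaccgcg
*Pdk2* (chr11:95041322-95041621, minus strand): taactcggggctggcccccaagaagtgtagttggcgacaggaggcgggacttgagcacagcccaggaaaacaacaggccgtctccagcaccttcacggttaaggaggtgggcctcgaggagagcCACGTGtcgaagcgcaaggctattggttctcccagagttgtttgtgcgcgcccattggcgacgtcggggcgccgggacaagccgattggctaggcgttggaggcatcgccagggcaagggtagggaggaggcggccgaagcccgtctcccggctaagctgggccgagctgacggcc
*Pdp2* (chr8:104591222-104591521, plus strand): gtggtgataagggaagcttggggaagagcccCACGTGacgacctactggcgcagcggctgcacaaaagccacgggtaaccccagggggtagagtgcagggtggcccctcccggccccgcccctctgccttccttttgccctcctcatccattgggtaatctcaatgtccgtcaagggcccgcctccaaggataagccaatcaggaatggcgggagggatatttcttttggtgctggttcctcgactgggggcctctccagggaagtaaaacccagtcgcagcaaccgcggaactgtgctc
*Ldha* (chr7:46845554-46845853, plus strand): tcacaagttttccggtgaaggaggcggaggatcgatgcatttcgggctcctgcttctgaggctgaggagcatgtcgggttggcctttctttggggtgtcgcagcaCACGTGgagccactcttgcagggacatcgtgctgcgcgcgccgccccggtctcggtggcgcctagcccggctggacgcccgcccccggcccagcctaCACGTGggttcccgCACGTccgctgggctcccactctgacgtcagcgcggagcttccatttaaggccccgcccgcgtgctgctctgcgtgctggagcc
ACGTG was present in 5 of the 9 windows (*Pdk2*, *Pdk3*, *Pdp2*, *Ldha*, and *Hif1a*) and in 19.6% of all 32851 promoter windows in the table. The interferon regulatory factor letters and GTAAACA were in 0 of the 9 and in 3.44% and 3.65% of all windows, and AGGTCA was in 1 (*Hif1a*) and in 16.3% of all. When every listed start was searched, *Pkm* joined through another start, giving 6 members with ACGTG and 2 with AGGTCA. The shares of all windows include every listed start of a gene, while the 9 windows are first listed starts. The counts over every listed start are per gene and not per window. The members and the shares of all windows are thus not strictly comparable. A match describes letters in a window and does not show binding.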

How the data were processed

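HSCs of 3 WT and 3 *Irf1-/-* mice were grouped as labeled. Upstream, the authors used Trim Galore for trimming, HISAT2 for alignment (mm39 in the submitters' processing notes), and Htseq-count for counting, and they deposited a normalized signal, the count divided by 1 DESeq2 size factor per library. Program versions, annotation, and strand setting were not given in the sources used here, so reads of overlapping or antisense genes and of near-identical copies, such as *Ldha* pseudogenes, may be assigned to either gene or lost. All nonzero deposited values (100%, within 0.1 of a read) could be written as a whole number of reads times a constant of the library, from which the reads were recovered.

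The genotype difference came from limma 3.58.1 under R 4.3.3, with eBayes moderating variances along an intensity trend, fitted to log2(normalized count + 1) for genes with a mean of at least 10. Fold changes on this scale understate changes of low genes. *P* values were adjusted by the Benjamini-Hochberg method over 17404 genes. On the recovered reads, edgeR 4.0.16 (quasi-likelihood test) called 327 genes, DESeq2 1.42.0 called 504 without and 303 with a prior on the fold change (of 13094 genes with an adjusted *P*), and limma called 333. Other alternatives covered the pseudocount, filter, trend, scaling, threshold, replicate block, and each library left out.

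Transcript lengths came from GENCODE vM1 by symbol (*Pkm* is listed there as *Pkm2*). The members and lists were chosen with earlier results of these data known. One marker gene is not reported here. Named genes were the 10 members, *Irf1*, the called genes and up to 4 genes of each list with the highest mean normalized count, and the 5 genes most correlated with *Pdk4*. List genes called only in some fits, markers at 0, *Flt4*, and *Ly6a* were added after the values were seen. Figures were drawn with matplotlib 3.10.9.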

Additional observations from a re-analysis of the deposited data

How the results depend on the processing

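Over 18 alternatives each, the log2 fold changes of *Pdk2*, *Pdk3*, *Pdp1*, *Pdp2*, *Pdha1*, *Ldha*, *Pkm*, and *Hif1a* kept their direction and stayed uncalled. Sizes moved with libraries left out (*Pdk3* −0.22 to −0.09, *Pdp1* −0.29 to −0.13, *Pdha1* −0.14 to −0.03, *Pkm* 0.03 to 0.16, *Hif1a* −0.28 to −0.11). *Pdk1* changed direction without WT replicate 2 (range with libraries left out −0.049 to 0.16). *Pdk4* was higher in all 18 and called in 15. It was not called without *Irf1-/-* replicate 2 or 3 (range with libraries left out 0.94 to 1.25) or without the intensity trend (1.10), where 0 members were called (0 to 1 with libraries left out). Genes called higher and lower, 167 and 166, were 7 and 33 without the trend, 301 and 260 without the fold threshold, and 83 to 305 and 105 to 265 with libraries left out, lowest without *Irf1-/-* replicate 4 and WT replicate 3, respectively, and highest without WT replicate 4. DESeq2 without a prior called 295 higher. The causes were not tested. The median of all genes was −0.0028 and at most 0.0405 under another scaling, and the share of called genes that were higher moved from 50.2% by less than 10 percentage points under each scaling. With the replicate number as a block (replicate block), 219 genes were called higher, 196 lower, and 1 member. Deviations of same-numbered libraries correlated at −0.094 (2), 0.25 (3), and 0.15 (4), the best match of the *Irf1-/-* library for numbers 3 and 4 but not 2, so the numbers were not taken as pairs. Fold changes of *Irf1*, of list genes with an adjusted *P* under 0.05, and of genes most like *Pdk4* were run under the same alternatives, a choice made after seeing the data, and none reversed. All called genes among them lost the call without the trend, *Aurkb*, *Car1*, *Klf1*, *Ldhd*, and *Mki67* in DESeq2 with a prior, *Car1* in edgeR and in DESeq2 without a prior, and *Klf1* with scaling to total reads.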
